A study of Mus musculus with 30 samples.

Results

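Sorbs2 (ENSMUSG00000031626) encodes an adaptor protein of the actin cytoskeleton, and its splicing events were taken from 4 deposited tables as all entries that carry its symbol. These were 21 of 6491 entries. The table of Emx1-Cre neurons held 10 of its 2682 events, that of Gad2-Cre neurons 10 of 1970, that of the Purkinje layer 0 of 603, and that of the control groups 1 of 1236. Sorbs2 itself had been chosen by these deposited inclusion levels, so its levels are described below and no test was run on them.

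The study compared mouse neurons without the RNA-binding protein NOVA2 with control neurons, all on the C57BL/6J strain and with ribosomal RNA removed from the libraries. Nova2-cKO_Emx1-Cre and Wild-type_Emx1-Cre cortical cells were sorted at embryonic day 18.5; Emx1-Cre is known to act in the lineage of excitatory cortical neurons. Nova2-cKO_Gad2-Cre and Wild-type_Gad2-Cre cortical cells were sorted at the same age; Gad2-Cre is known to act in inhibitory neurons. Nova2-cKO_Pcp2-Cre and Wild-type_Pcp2-Cre samples were Purkinje cell layer of the cerebellum at postnatal day 28, a dissected tissue that also holds cells without Cre. Each of these 6 groups had 3 samples, and the other 12 samples of the series were not used here. The controls are called wild type in the labels with the name of the Cre driver, so every group used carries that name. The tables hold no expression values, so the purity of the sorted cells could not be checked with marker genes.

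SORBS proteins join a sorbin homology domain to SH3 domains, and through these they hold kinases, ubiquitin ligases and actin regulators at sites of adhesion. SORBS2, also known as ArgBP2, was found as a partner of the Abl kinases. A longer neural form, nArgBP2, is known from the postsynaptic side of excitatory synapses, where it binds scaffold proteins. NOVA proteins are known to bind clusters of the RNA word YCAY (Y is C or U) and to raise or lower the use of nearby exons, depending on where the clusters lie.

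The inclusion level given for each event is the authors' deposited fraction, from 0 to 1, pooled over the samples of a group. A level sets RNA with the event's exons against RNA that joins the flanking exons directly. Levels of overlapping events therefore do not add up to 1. There is 1 value per group, so no level has an error over samples, and the depth of each library is unknown. A pooled level cannot tell a partial change in every cell from a full change in some cells. The coverage of an event, a deposited signal that no source here defines, was never below 20 in the tables.

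The exons lie in 2 regions of the gene, which runs from 45507788 to 45827906 on the plus strand of chromosome 8 in mouse build mm10 (GENCODE M21, counted from 1). The 5′ region is the 14272 nt between a coding exon of 115 nt and one of 50 nt, chr8:45775704-45789975. It holds alternative coding exons of 159, 84 and 57 nt. The 3′ region is the 6741 nt between a coding exon of 188 nt and one of 89 or 92 nt, chr8:45792969-45799709. It holds an alternative coding exon of 1581 nt. Only 6 cassette exons of other genes in the 4 tables were longer than that one, and the median length of the others with a sequence was 92 nt.

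**Figure D1:**
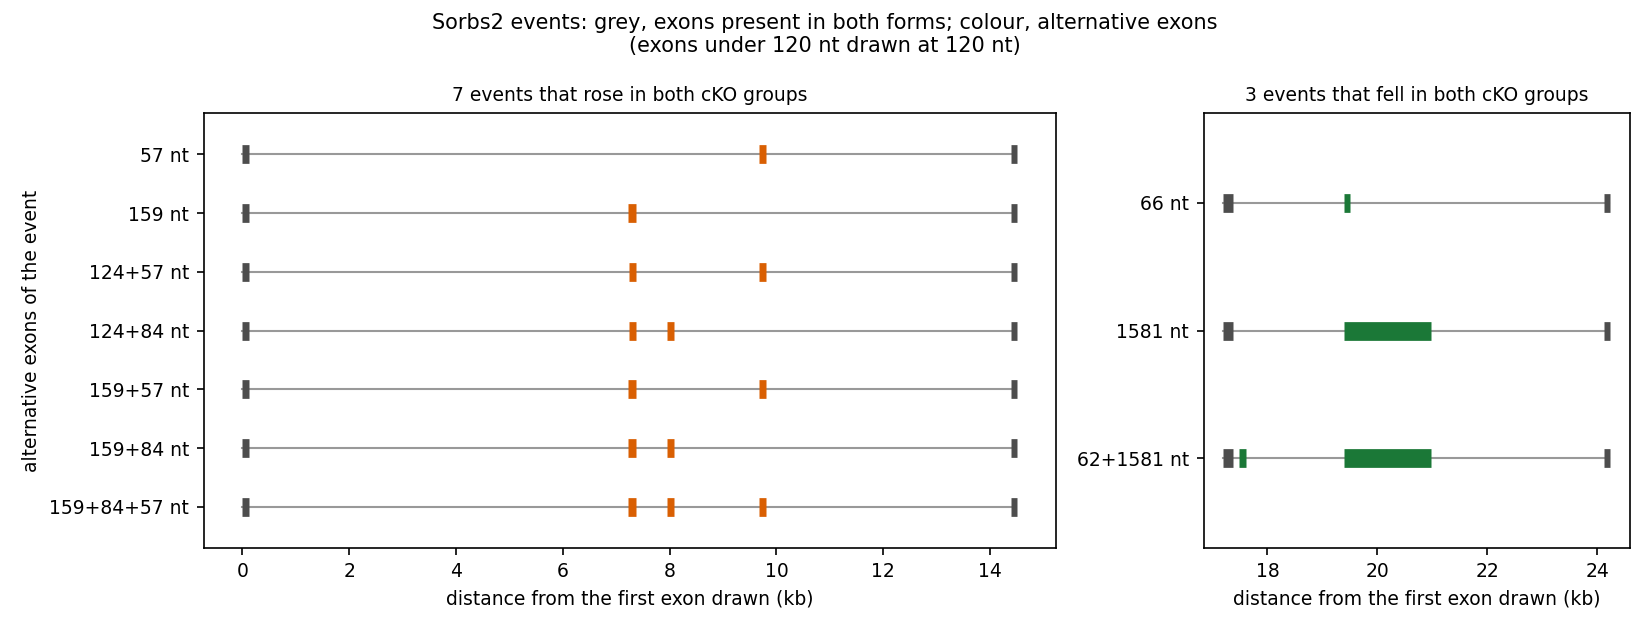
Structure of the 10 Sorbs2 events listed in both cKO tables, each drawn as a line from its first to its last exon. The x axis is the distance in kb from the first base of the 115-nt exon, short exons are widened so that they can be seen, and each line is labelled with the lengths of its alternative exons in nt. The 7 events on the left share 1 pair of outer exons; the 3 on the right share the intron that is skipped, while their last exon ends at either of 2 places.

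The 3 alternative exons of the 5′ region are shown because all of its events are built from them. They are read from GENCODE M21 transcripts, with YCAY words, that is CCAC, its variant CCAT, or with T first TCAC and its variant TCAT, in capitals. The 159-nt exon is at chr8:45782802-45782960, the 84-nt exon at chr8:45783543-45783626 and the 57-nt exon at chr8:45785269-45785325.
Sorbs2 159-nt exon: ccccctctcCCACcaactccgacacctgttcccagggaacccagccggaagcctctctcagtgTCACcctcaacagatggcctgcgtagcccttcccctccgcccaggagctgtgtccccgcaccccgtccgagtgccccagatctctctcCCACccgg
Sorbs2 84-nt exon: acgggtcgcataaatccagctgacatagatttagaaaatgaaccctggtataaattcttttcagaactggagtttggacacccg
Sorbs2 57-nt exon: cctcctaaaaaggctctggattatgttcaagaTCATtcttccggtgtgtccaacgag

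The 1581-nt exon is at chr8:45794978-45796558. Its first 66 nt, chr8:45794978-45795043, are shown because they are listed as an event of their own. No GENCODE transcript of the gene has an exon with these bounds.
First 66 nt of the 1581-nt exon: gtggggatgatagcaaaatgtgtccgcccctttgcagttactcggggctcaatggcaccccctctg

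In both classes of cortical neuron, the 5′ exons were mostly used in the Nova2 cKO and mostly skipped in controls, while the 1581-nt exon was mostly skipped in the cKO and mostly used in controls. The same 10 events were listed in the Emx1-Cre and in the Gad2-Cre table, and all 10 had the same direction in both. In each table, 7 events were higher in the cKO, all in the 5′ region, and 3 were lower, all in the 3′ region. Over all listed cassette and tandem cassette events, 47.5% were higher in the cKO for Emx1-Cre neurons and 34.3% for Gad2-Cre neurons. The gene's events do not part the classes by direction: no Sorbs2 event was listed in only 1 of the cKO tables (0 events).

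Of the 5′ events, that of the 159- and 84-nt exons as a pair differed most. Its inclusion level was 0.819 in Emx1-Cre cKO neurons and 0.0971 in Emx1-Cre controls (the authors' FDR 9.65e-11, coverage 25.1). In Gad2-Cre cKO neurons it was 0.811, against 0.0272 in Gad2-Cre controls (the authors' FDR 3.02e-11, coverage 25.9). Both cKO groups were thus near the same level, and the level of this event was low in both control groups. The event of all 3 exons, which also holds the pair, had higher control levels, 0.259 in Emx1-Cre and 0.152 in Gad2-Cre neurons. By the size of its difference, the event of the pair stood at position 4 of the 1970 events for Gad2-Cre neurons and at 44 of 2682 for Emx1-Cre neurons.

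The event of all 3 exons together had a level of 0.895 in Emx1-Cre cKO neurons and 0.259 in Emx1-Cre controls. In Gad2-Cre neurons the level was 0.910 in the cKO and 0.152 in controls. From high to low, the order was Gad2-Cre cKO, Emx1-Cre cKO, Emx1-Cre control and Gad2-Cre control. The cKO levels differ by -0.0151, Emx1-Cre minus Gad2-Cre, and have no error, so their order is not established.

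The event of the 159-nt exon alone had a level of 0.808 in Emx1-Cre cKO neurons and 0.178 in Emx1-Cre controls, a difference of 0.63. In Gad2-Cre neurons it had 0.780 in the cKO and 0.0592 in controls, a difference of 0.72. This exon encodes 53 whole codons and keeps the reading frame. Of the 5′ events, that of the 57-nt exon alone had the highest level in both control groups. Its level was 0.893 in Emx1-Cre cKO neurons and 0.315 in Emx1-Cre controls, and 0.911 in Gad2-Cre cKO neurons and 0.243 in Gad2-Cre controls. The 57-nt exon adds 19 codons, and the 84-nt exon adds 28. The event of the 159-nt and 57-nt exons together had 0.889 in Emx1-Cre cKO neurons and 0.296 in Emx1-Cre controls. In Gad2-Cre neurons it had 0.8998 in the cKO and 0.193 in controls.

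A shorter form of the 159-nt exon, of 124 nt, begins 35 nt further in, after the letters AG, and no GENCODE transcript of the gene has an exon with these bounds. The event that pairs it with the 84-nt exon had a level of 0.635 in Emx1-Cre cKO neurons and 0.0360 in Emx1-Cre controls. In Gad2-Cre neurons the same event had 0.663 in the cKO and 0 in controls, at a coverage of 23.9. For the event with the 57-nt exon the levels were 0.839 and 0.259 in Emx1-Cre cKO and control neurons. They were 0.869 and 0.175 in Gad2-Cre cKO and control neurons. The 124-nt form ends at the same base as the 159-nt exon and shares the exons that follow. These levels therefore do not tell how much RNA began at the inner site. The events with the 124-nt form do not keep the reading frame. Read on from the 115-nt exon, the 124-nt form meets the stop codon TAG at its base 52. How much RNA carried this stop codon is not known from these data. The forms with 159, 84 or 57 nt, in the combinations listed, hold no stop codon up to the end of the 188-nt exon.

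In the 3′ region, the 1581-nt exon fell to 0.153 in Emx1-Cre cKO neurons, against 0.942 in Emx1-Cre controls (the authors' FDR 5.46e-18, coverage 66.9). It fell to 0.253 in Gad2-Cre cKO neurons, against 0.867 in Gad2-Cre controls (the authors' FDR 2.88e-10, coverage 70). The order of the levels was Emx1-Cre control, Gad2-Cre control, Gad2-Cre cKO and Emx1-Cre cKO, from high to low. The exon is as long as 527 codons, though it begins and ends inside a codon. It holds no stop codon in the frame of the 188-nt exon. Its loss therefore shortens the message without changing the frame.

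The 66-nt form ends inside the long exon just before the letters GT. Its event had a level of 0.0836 in Emx1-Cre cKO neurons and 0.857 in Emx1-Cre controls. In Gad2-Cre neurons it had 0.139 in the cKO and 0.688 in controls. Its coverage was 25.9 and 27.0 in these tables, well under that of the full exon. The 66-nt form begins at the same base as the 1581-nt exon, so this level does not tell how much RNA ended at base 66. The tandem event joins a region of 62 nt at chr8:45793072-45793133 to the 1581-nt exon. It had a level of 0.0559 in Emx1-Cre cKO neurons and 0.875 in Emx1-Cre controls, and of 0.106 in Gad2-Cre cKO neurons and 0.741 in Gad2-Cre controls. The 62-nt region is no GENCODE exon, and with it the 1643 nt of the event do not keep the frame. The event also holds the 1581-nt exon, so its level does not tell how much RNA carried the 62-nt region.

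**Figure D2:**
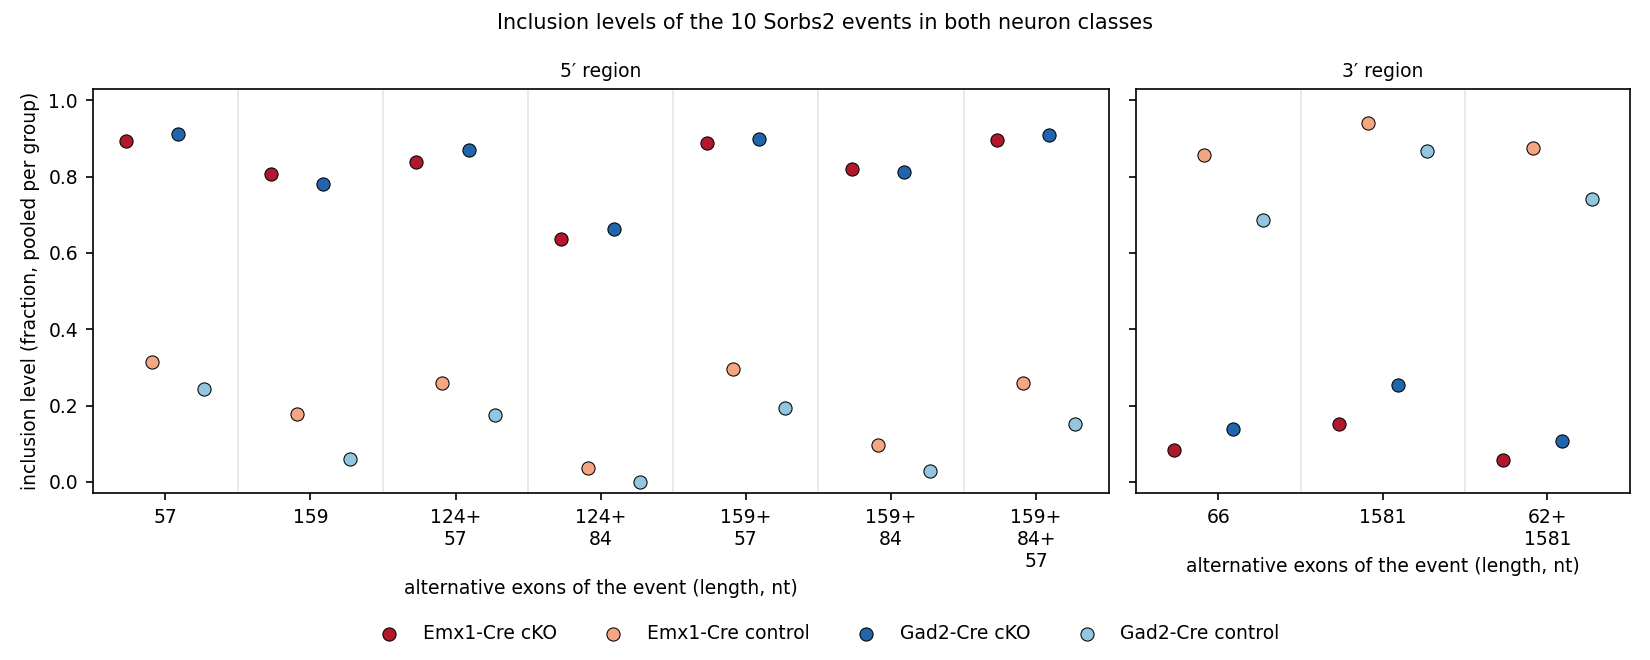
Inclusion level (fraction, 1 pooled value per group, no error bars) of the 10 Sorbs2 events, named on the x axis by the lengths of their alternative exons. In the 5′ region all cKO points lie between 0.635 and 0.911 and all control points between 0 and 0.315; in the 3′ region the cKO points lie between 0.0559 and 0.253 and the control points between 0.688 and 0.942.

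The 10 events are not 10 separate changes. The 7 events of the 5′ region share the same outer exons, so all are measured against the same skipping form, and the 3 events of the 3′ region share the intron of their skipping form. The last exon of the 3′ region is 89 nt long in the event of the 1581-nt exon and 92 nt in the other 2. The coverage of the 5′ events was low, from 21.1 to 30 in Emx1-Cre and from 23.9 to 29.9 in Gad2-Cre neurons. The median event had 71 and 64.0 there.

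The classes differed in how large the difference was. In the 5′ region, all 7 differences were smaller in Emx1-Cre than in Gad2-Cre neurons, and Emx1-Cre minus Gad2-Cre ran between -0.122 and -0.0621. In the 3′ region, all 3 were larger in size in Emx1-Cre neurons, by 0.176 to 0.224. Most of the 5′ gap came with the control levels, which were higher in Emx1-Cre than in Gad2-Cre neurons at all 7 events, by 0.0360 to 0.118. The cKO levels there, Emx1-Cre minus Gad2-Cre, lay between -0.0305 and 0.0281. In the 3′ region the Emx1-Cre level was the higher one in controls, by 0.0753 to 0.169, and the lower one in the cKO, with Emx1-Cre minus Gad2-Cre between -0.101 and -0.0503. These gaps were not tested, since no value per sample is given and the gene was chosen for its pattern. Between the controls, 5 of the 10 events differed by at least 0.1, yet none of the 10 was listed in the authors' table of controls (0 events).

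**Figure D3:**
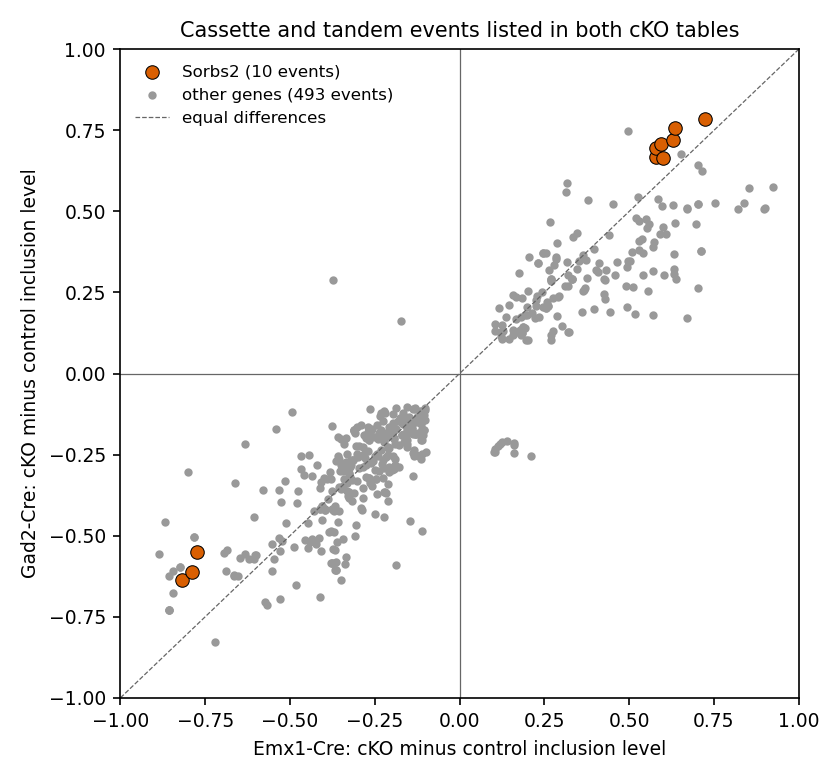
Difference of inclusion level, cKO minus control, in Emx1-Cre neurons (x axis) and Gad2-Cre neurons (y axis), for the 503 cassette and tandem cassette events listed in both tables. Orange points are the 10 Sorbs2 events and grey points the events of other genes; the 7 rising Sorbs2 events lie above the dashed line of equal differences, and the 3 falling ones also lie above it, since their fall was smaller in Gad2-Cre neurons.

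That an event listed in both tables kept its direction was the rule and not particular to Sorbs2. Of the cassette and tandem cassette events in the Emx1-Cre table, 31% were also listed in the Gad2-Cre table, and of those in the Gad2-Cre table a share of 43.7% were in the Emx1-Cre one. Of the 503 events in both, 97.4% had the same direction. A gene with both a rise and a fall was less usual. Among genes with 2 or more such events, 12.7% of 324 genes for Emx1-Cre neurons and 10.5% of 248 for Gad2-Cre neurons had both. These shares are not matched for the number of events, and a gene with more events can more easily have both. Sorbs2 had 10 events in each cKO table, where the median over all listed genes was 1 event of any type. Only 33 genes for Emx1-Cre and 17 for Gad2-Cre neurons had more.

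One further Sorbs2 exon was listed between the control groups. A 92-nt exon at chr8:45645761-45645852, far upstream of both regions, had an inclusion level of 0.105 in Emx1-Cre controls and 0.218 in Gad2-Cre controls (the authors' FDR 0.00207, coverage 32.6). The difference was -0.113, and by size it stood at position 1152 of 1236. Of all cassette and tandem cassette events listed there, 64.2% were lower and 35.8% higher in Emx1-Cre than in Gad2-Cre controls. The exon overlaps no coding sequence in GENCODE, where 3 transcripts carry it. It was listed in neither cKO table, so its level in cKO neurons is not known from these data. In the Purkinje layer no Sorbs2 event passed the authors' thresholds (0 events; 65.8% of its cassette and tandem cassette events had a difference below 0 and 34.2% one above 0, in an order of groups that is not named), and the table does not show whether the gene's exons were covered there. The 4 tables list only what passed, and 0 entries do not show equal levels.

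GENCODE describes both arrangements of each region. Of 14 transcripts that contain the 115-nt and the 50-nt exon, 6 join them directly, 2 carry the 159-, 84- and 57-nt exons together, 2 carry those of 159 and 57 nt, 1 carries those of 159 and 84 nt, 1 the 159-nt exon alone and 2 the 57-nt exon alone. Of 10 transcripts that span the 3′ region, 5 carry the 1581-nt exon and 5 skip it. Among 10 transcripts that span both regions, 3 hold the 159-nt exon without the 1581-nt exon, 3 hold the 1581-nt exon without the 159-nt exon, 2 hold both and 2 neither. Since events were measured region by region, the tables do not show how often the changes of both regions lie on the same RNA.

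YCAY words were counted on the RNA strand, overlapping words included, as a description of the exons' sequences. The 1581-nt exon holds 39, or 2.47 per 100 nt, against a median of 1.39 per 100 nt over 1435 cassette exons of other genes in the 4 tables. Of these, 73.6% had a lower density. Only 5 of them had a length within 1.25-fold of it, shorter or longer; all 5 held the word, with a median of 1.89 per 100 nt. The words were uneven along the exon, with 6, 23 and 10 in its successive stretches of 527 nt. The bin with the most, bases 1001 to 1100, held 10. Neither the 66-nt form nor the 84-nt exon holds the word (0 words each).

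The 159-nt exon holds 3 words, or 1.89 per 100 nt, and the 57-nt exon holds 1, or 1.75 per 100 nt. Among exons within 1.25-fold of their length, 90.2% of 285 and 55.7% of 244 held at least 1 word, and of those like the 84-nt exon 71.6% of 394 did. Intron letters could be read only next to the 57-nt exon, where a GENCODE transcript with a retained intron runs across it. The 100 nt before it, chr8:45785169-45785268, hold 5 words and the 100 nt after it, chr8:45785326-45785425, hold 2. Among 200 cassette exons of other genes with such letters, the medians were 2 before and 1 after the exon, and 79% and 76% had at least 1. With 200 nt on each side there were 7 words before and 3 after, against a median of 3 on either side over 164 exons, where 95.1% had at least 1 before and 98.2% at least 1 after. Both flanks are shown because they are the only intron letters at hand for an exon that rose.
100 nt before the 57-nt exon: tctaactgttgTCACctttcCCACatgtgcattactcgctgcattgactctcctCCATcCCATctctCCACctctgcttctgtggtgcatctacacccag
100 nt after the 57-nt exon: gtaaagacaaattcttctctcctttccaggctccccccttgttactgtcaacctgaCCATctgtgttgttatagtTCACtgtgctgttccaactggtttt

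**Figure D4:**
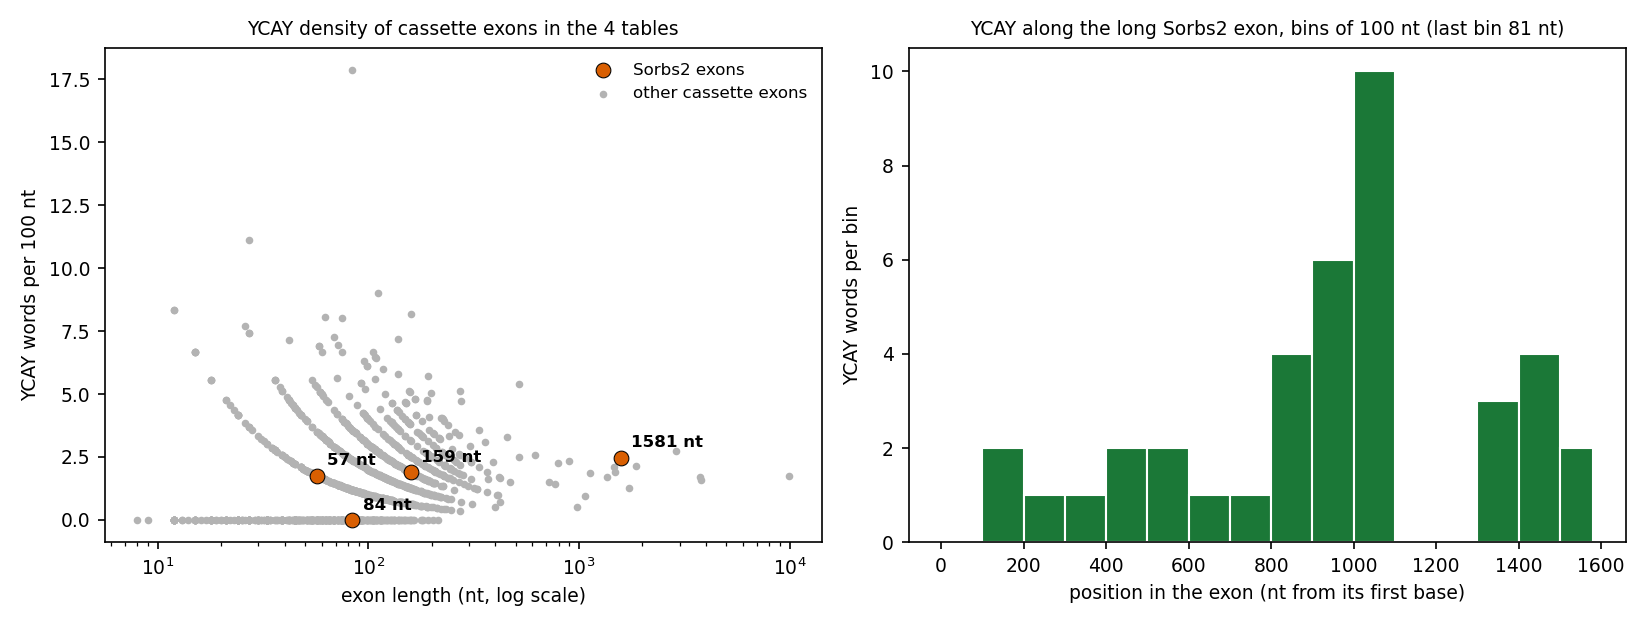
Left, YCAY words per 100 nt against exon length (nt, log scale) for cassette exons in the 4 tables, with the Sorbs2 exons in orange and those of other genes in grey. Right, number of YCAY words in successive bins of 100 nt along the 1581-nt exon (the last bin is shorter); the bins between bases 801 and 1100 hold 4, 6 and 10.

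The genes most like Sorbs2 were sought among 221 genes with a cassette or tandem event in both cKO tables, by the distance between 4 values: the largest rise and the largest fall in each table. The closest was Grik2, a kainate receptor subunit, at a distance of 0.559. Its 139-nt exon had 0.765 in Emx1-Cre cKO and 0.136 in Emx1-Cre control neurons, and 0.605 in Gad2-Cre cKO and 0.0842 in Gad2-Cre control neurons. Its 87-nt exon fell to 0.0482 in Emx1-Cre cKO neurons, against 0.385 in Emx1-Cre controls, and to 0.101 in Gad2-Cre cKO neurons, against 0.687 in Gad2-Cre controls. Next came Ptprf, a receptor phosphatase of the LAR type, at 0.609, Chl1, an adhesion molecule of the L1 family, at 0.657, Slc8a1, a sodium-calcium exchanger, at 0.717, and Tpm3, a tropomyosin, at 0.723. In Chl1 a 48-nt exon rose to 0.791 in Emx1-Cre cKO neurons, against 0.190 in Emx1-Cre controls, and a 62-nt exon fell to 0.452 in Emx1-Cre cKO neurons, against 0.778 in Emx1-Cre controls. None of the 5 had differences as large as those of Sorbs2 in all 4 values.

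Among 35 genes of proteins known to bind SORBS proteins or their partners, 4 had a listed cassette or tandem event in the Emx1-Cre table, with inclusion in the largest event higher in the cKO for 0 and lower for 4. For Gad2-Cre neurons 4 were listed, 1 higher and 3 lower. Of all 21924 protein-coding gene symbols of GENCODE, many of which neurons do not use, 2.28% were listed for Emx1-Cre and 1.92% for Gad2-Cre neurons. Ptk2, the focal adhesion kinase, had a 104-nt exon at 0.364 in Emx1-Cre cKO and 0.704 in Emx1-Cre control neurons. In the Gad2-Cre table, the largest event of that exon had 0.196 in the cKO and 0.474 in controls. Dlg4, which encodes the postsynaptic scaffold PSD-95, had an 82-nt exon at 0.668 in Emx1-Cre cKO and 0.879 in Emx1-Cre control neurons, and at 0.608 in Gad2-Cre cKO and 0.859 in Gad2-Cre control neurons.

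Inclusion of a 60-nt exon of the spectrin gene Sptan1 was lower in Emx1-Cre neurons, with 0.0865 in the cKO and 0.255 in controls, as was that of a 64-nt exon of the phosphatase gene Ptpn12, with 0.0311 in the cKO and 0.144 in controls. In Gad2-Cre neurons, inclusion of an 81-nt exon of the actinin gene Actn4 was higher, with 0.203 in the cKO and 0.0504 in controls. Inclusion of a 41-nt exon of Afdn, which encodes afadin, was lower there, with 0.735 in the cKO and 0.845 in controls. In the Purkinje layer 2 of the 35 were listed, Sptan1 and the scaffold gene Dlgap1, beside 0.753% of all protein-coding symbols. The order of the groups is not named there, so no direction is given. Between the controls 3 of the 35 were listed, beside 1.57% of all protein-coding symbols, with inclusion of their largest event higher for Actn4 and Ptk2 and lower for Afdn in Emx1-Cre than in Gad2-Cre controls.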

How the data were processed

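Splicing tables were made with Quantas by the authors and refer to mm10, per the labels. Aligner, versions, strand and how samples were pooled: not given in the sources used here. Every deposited table gives, per the file headers, an inclusion rate per group as a fraction. It also gives their difference, an unscaled score that the authors computed as group 1 minus group 2, which held within 3e-08 where both were read (for the Purkinje layer only the difference was). Coverage is a signal deposited once per comparison. The authors' p-value and FDR are deposited too, and no listed FDR is above 0.05 and no difference below 0.1 in size. Depth per sample is unknown.

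Differences were recomputed as cKO minus control, or Emx1-Cre minus Gad2-Cre between controls. The labels name the control first; in the table of controls, levels equalled those of the cKO tables at all 269 and all 261 shared events (cassettes, tandem cassettes and retained introns, within 1e-06). Positions came from the deposited interval lists, and exons and letters from GENCODE M21, of the same build; no genome was used, so most introns were not read. No label tells if the samples of a group are different animals, and the FDR may then measure technical spread.

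Named were all Sorbs2 events, the 5 genes of smallest distance, and listed members of a list of 35 genes; each of these, and the tests left out, was chosen with earlier results of these data known. Likeness used the largest rise and fall of cassette and tandem events in 2 tables. Some items are not reported here. Motif counting and the distance were tested on simulated data. Alternatives were an FDR of 0.01, a difference of 0.2, a coverage of 40, merged regions, fewer event types and flanks of 100 and 300 nt. Python 3.11.15, pandas 2.3.3, numpy 2.4.6, scipy 1.17.1 and matplotlib 3.10.9 were used.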

Additional observations from a re-analysis of the deposited data

How the results depend on the processing

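With a coverage of at least 40, 2 Sorbs2 events were left in the Emx1-Cre and 2 in the Gad2-Cre table, 2 of them shared with the same direction, and 100% of those left were lower in the cKO: all 7 events of the 5′ region lie under that coverage. Counting overlapping alternative regions once left 2 events in each cKO table, of which 50% were lower in the cKO, against 30% of all 10. The single event between the controls was lost (0 events) at a difference of at least 0.2 and at a coverage of at least 40. Under an FDR of at most 0.01 or a difference of at least 0.2, all 10 events stayed in each cKO table. Restricting the tables to cassettes and tandem cassettes could change nothing, since all Sorbs2 events are of these types, and no filter could change the 0 events of the Purkinje table. The share lower could not be computed for the Purkinje table, nor for the controls where no event was left. YCAY words in and around the 57-nt exon came to 3.11, 2.41 and 1.83 per 100 nt with flanks of 100, 200 and 300 nt. No paired analysis was possible because the tables hold 1 pooled level per group, and no sample could be left out for the same reason.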
